A study of Mus musculus with 14 samples.

Results

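The cytoplasmic ribosomal protein genes were examined in peritoneal B-1a cells from mice labelled Bmi1 KO and from wild-type (WT) mice. Members were the genes whose name in the array design is Rpl or Rps followed by a number, with an optional letter a, x or l, together with Rplp0, Rplp1, Rplp2 and Rpsa. This rule, which uses names and no measured value, gave 80 of 34821 gene names, 32 of the small and 48 of the large subunit, read by 186 probes. B-1a cells are self-renewing CD5-bearing B lymphocytes of the body cavities, and Bmi1 belongs to Polycomb repressive complex 1, which keeps developmental genes silent. Each sample had its own one-colour Agilent array, 7 per genotype. The study ran 2 experiment sets, which are separated here only by how the sample titles are numbered: set 1 held 3 arrays per genotype (replicates 2 to 4) and set 2 held 4 (replicates 1 to 4). No treatment is labelled for any group. The part of Bmi1 that was deleted and the strain, age and sex of the mice are not stated in any source used here. The labels name no animal for a sample, so each p-value rests on a spread between samples that may be technical.

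Each ribosome holds a small subunit, which decodes the mRNA, and a large subunit, which joins amino acids into protein. Their proteins are made in matched amounts, and the mRNAs of most of them begin with a cytosine followed by a run of pyrimidines (the 5′ terminal oligopyrimidine, or TOP, motif), through which mTOR signalling controls their translation. Resting lymphocytes keep a low rate of ribosome production and raise it on activation, and some ribosomal proteins, such as Rpl5, Rpl11 and Rpl23, also bind Mdm2 when ribosome assembly fails.

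The promoters of the members are shown for a run of pyrimidines near the start. This is a looser feature than the TOP motif, as no cytosine at the first base of the mRNA was required. The shares below are therefore not shares of TOP motifs. A link between promoter sequence and the measured levels was not tested. RefSeq windows (GRCm38.p6) reaching from 250 bases before to 50 bases after the annotated start were found by symbol for 59 of the 80 genes, 56 of which passed the filter on dim probes described below. The windows below reach from 60 bases before the start to 30 bases after it, 5′ to 3′ on the strand of the gene. Capitals mark a run of at least 7 pyrimidines that starts between 10 bases before and 40 bases after the start, and matches to CCGGAAG or GGGCGG on either strand. Rps6, Rps9, Rpl38 and Rpl27a are shown for the run, Rpl24 and Rpl5 are the genes of the large subunit with the smallest p between genotypes, and Rpl39l and Rpl3l are paralogs that did not pass that filter. Both paralogs also hold a run, of 7 bases in Rpl39l and of 9 in Rpl3l, where it lies past the bases shown.
Rps6 (chr4:86857338-86857427, minus strand): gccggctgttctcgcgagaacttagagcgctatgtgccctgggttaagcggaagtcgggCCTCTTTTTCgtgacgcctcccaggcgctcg
Rps9 (chr7:3703981-3704070, plus strand): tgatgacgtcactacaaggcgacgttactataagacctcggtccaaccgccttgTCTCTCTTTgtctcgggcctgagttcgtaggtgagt
Rpl38 (chr11:114668520-114668609, plus strand): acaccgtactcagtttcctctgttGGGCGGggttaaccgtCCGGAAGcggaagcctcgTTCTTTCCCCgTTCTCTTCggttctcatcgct
Rpl27a (chr7:109519135-109519224, plus strand): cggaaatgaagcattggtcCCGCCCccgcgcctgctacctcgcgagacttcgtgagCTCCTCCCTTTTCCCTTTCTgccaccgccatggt
Rpl24 (chr16:55966215-55966304, plus strand): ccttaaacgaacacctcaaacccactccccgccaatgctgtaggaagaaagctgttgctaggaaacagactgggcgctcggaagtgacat
Rpl5 (chr5:107900468-107900557, plus strand): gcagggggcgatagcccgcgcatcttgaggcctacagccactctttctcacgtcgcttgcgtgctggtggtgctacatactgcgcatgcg
Rpl39l (chr16:10170168-10170257, plus strand): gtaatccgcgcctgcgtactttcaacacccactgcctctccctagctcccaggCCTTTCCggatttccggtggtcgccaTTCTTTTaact
Rpl3l (chr17:24727766-24727855, plus strand): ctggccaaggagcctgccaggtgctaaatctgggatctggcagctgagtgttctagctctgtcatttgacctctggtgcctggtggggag
In Rpl27a the run was 20 bases long, and in Rps6 and Rpl38 the longest was 10. In Rpl24 and Rpl5 no run that starts in the stretch searched exceeded 5 bases, so not all members have the feature as defined here. The Rpl5 window does hold a longer pyrimidine run, ctctttctc. It starts more than 10 bases before the annotated start and is therefore neither marked nor counted. The run was present in 65.7% of 67 windows of the measured members, against 29.3% of all 32841 windows of this length, and 40 of the 56 genes had it in at least 1 window. Of the 6 motifs searched on both strands of the whole window, CCGGAAG, the core of ETS factor sites, was found in 35.8% of member windows and 8.86% of all. The sequence CTCTTTCC, itself a pyrimidine run and so overlapping that count, was found in 19.4% against 3.12%, and AAGATGGC, the core of YY1 sites, in 10.4% against 2.75%. GGGCGG, an Sp1 site, was found in 59.7% against 35.7% and CACGTG, an E-box, in 11.9% against 7.15%. TATAAA was the motif with the lower share in members, 8.96% against 13.6%. These matches are descriptions of sequence, and windows of 1 gene overlap.

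Levels are given as log2 of the scanner's processed intensity minus the 75th percentile of the array's non-control spots. A gene was kept where the scanner marked a probe as well above background on 4 or more of 7 arrays in KO or in WT, and its value is that of its brightest probe by mean. This kept 77 members, all 32 of the small subunit and 45 of the large, among 20407 genes. The 3 members that did not pass were Rpl3l, Rpl10l and Rpl39l, paralogs known for expression in muscle or testis. Rpl39l was above background on 0 of the 14 arrays, Rpl3l on 1 KO and 0 WT arrays, and Rpl10l on 1 KO and 2 WT arrays. Of the 77 kept members, 74 were above background on all 14 arrays, and no member was saturated on any array.

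The arrays themselves differed. The share of probes above background ran from 43.5% to 63.3% in WT and from 20.6% to 56.6% in KO, and the 4 arrays below 40% were all KO (set 1 replicate 4 and set 2 replicates 1, 2 and 3). Set 1 lay on slide 1, the KO arrays of set 2 and WT set 2 replicates 1 and 3 on slide 2, and WT set 2 replicates 2 and 4 on slide 3. The 8 B cell markers checked, among them Cd79a and Pax5, were above background on every array. Of 4 B-1a markers, Cd5 was above background on 3 KO and 6 WT arrays and Bhlhe41 on 4 and 7, and the mean level of the list ran from -0.90 to 1.62 in KO and from 0.99 to 2.90 in WT. Bmi1 did not separate the labels: its probe at chr2:18607531-18607590 (mm9) differed by 1.09 (KO minus WT, SE 0.90; limma adjusted p = 0.548) and the one at chr2:18607987-18608046 by 3.74 (SE 0.87; limma adjusted p = 0.176). Neither was lower on the arrays labelled KO. Whether these probes lie in the deleted part is not known, so they do not check the labels, and KO and WT below name the arrays so labelled.

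Comparing the genotypes asks whether the transcripts of the ribosome differ in B-1a cells labelled as lacking Bmi1. Ribosomal protein transcripts read higher on average on the arrays labelled KO, by a median of 1.54 in the small and 1.52 in the large subunit on the log2 scale. The median over all 20407 genes was itself 0.47, so that the subunits stood 1.08 and 1.05 above it, and 75 of the 77 members lay above the median of all genes. The quartiles of the members' differences were 1.35 and 1.69, and those of all genes -0.38 and 1.09. Yet 0 members passed the test between genotypes (limma with set as covariate, Benjamini-Hochberg adjusted p under 0.05), where 0.0245% of all genes did, 1 higher and 4 lower. The smallest adjusted p among members was 0.315, for Rpl24. At an unadjusted p under 0.05, 38 members were higher and 0 lower in KO, against 10.1% of all genes higher and 4.23% lower. In these bulk samples, fewer cells that express a gene and less of its RNA per cell cannot be told apart.

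The excess lay on a few arrays. The median level of the 32 small subunit genes was 6.91, 6.78 and 8.91 for KO in set 1, against 9.61, 11.05, 8.12 and 6.39 for KO in set 2. For WT it was 7.99, 5.52 and 5.62 in set 1, against 5.99, 6.24, 6.99 and 7.12 in set 2. The 4 highest of the 14 values belonged to the 4 KO arrays with under 40% of probes above background, and the next to WT set 1 replicate 2, which at 43.5% had the lowest share among the WT arrays. The other 3 KO arrays lay within the range of the WT arrays.

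**Figure D1:**
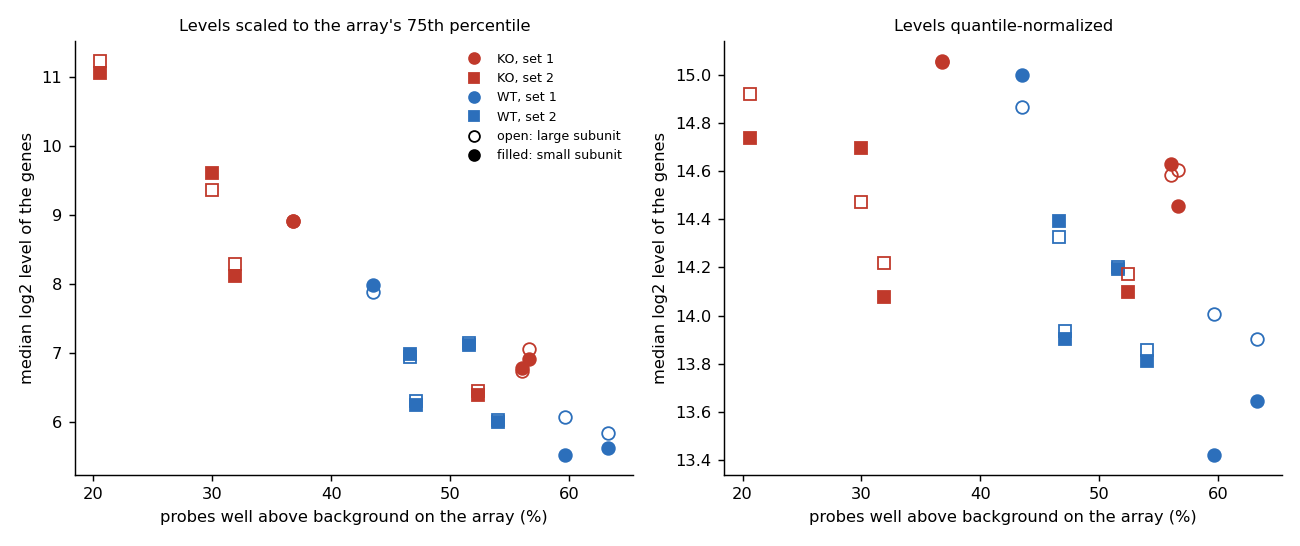
Median log2 level of the small subunit (filled) and large subunit (open) genes of each array against the share of its probes well above background (%), for KO (red) and WT (blue) arrays of set 1 (circles) and set 2 (squares). Scaled to the 75th percentile (left), the levels were highest on the arrays with the smallest share, reaching 11.05 for the small subunit at 20.6%. Quantile-normalized (right), the levels of both subunits spanned 13.42 to 15.06.

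The large subunit followed the same arrays, with KO medians of 7.05, 6.75 and 8.92 (set 1) and 9.36, 11.23, 8.29 and 6.45 (set 2). Its WT medians were 7.88, 6.07 and 5.85 (set 1) and 6.03, 6.30, 6.94 and 7.14 (set 2). Both subunits thus ranked the same 4 KO arrays highest. The small minus large difference ran only from -0.54 to 0.25 over the 14 arrays, with means of -0.04 ± 0.15 for KO and -0.10 ± 0.22 for WT (SD, n = 7 each). For 73 of the 77 members the highest of the 14 arrays was KO set 2 replicate 2, where 20.6% of probes were above background. All 4 dim KO arrays lay above every WT array for 44 members, while any of the other 3 KO arrays did so for 1 member. These counts, and that of the highest array, were not taken over all genes. They are therefore not read as particular to the members. Every KO array lay above every WT array for 0 members, against 0.152% of all genes.

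**Figure D2:**
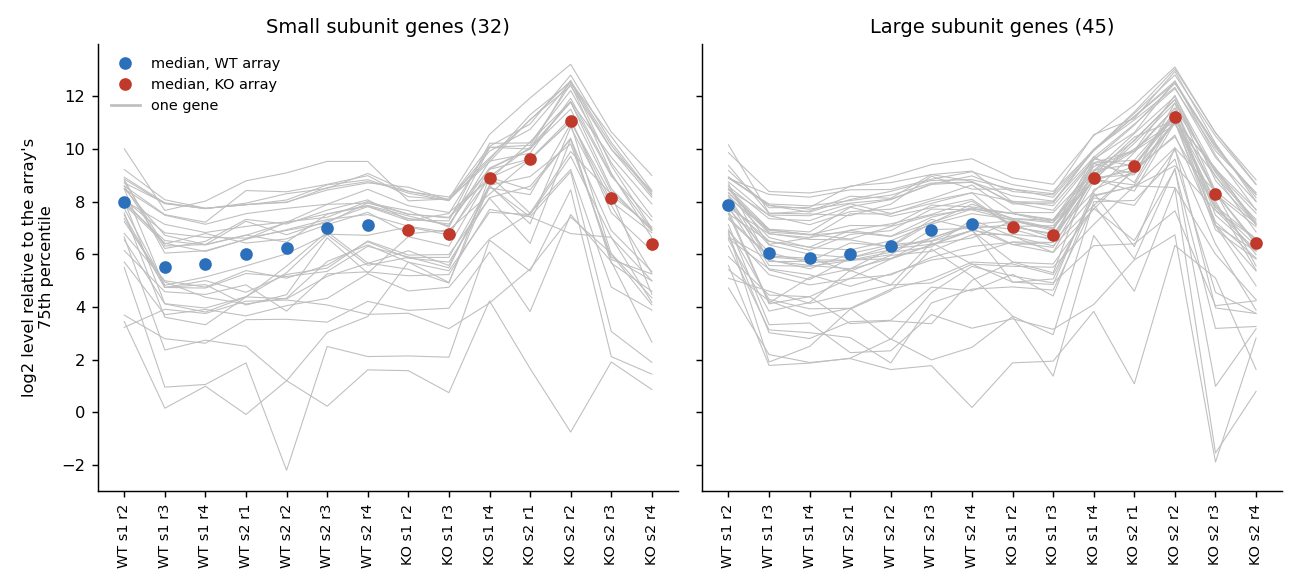
Log2 level relative to the array's 75th percentile for each of the 32 small subunit and 45 large subunit genes that passed the filter (grey lines), over the 14 arrays (s is the set, r the replicate). Dots are the subunit's median on WT (blue) and KO (red) arrays; 73 of the 77 lines are highest at KO set 2 replicate 2, where the medians were 11.05 and 11.23.

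Without the 4 dim KO arrays, an alternative chosen after seeing the data, the median difference of the members was 0.01 and that of all genes -0.02. The members then ranged from -0.95 to 0.56, 44 of 77 lay above the median of all genes, and 0 passed an unadjusted p under 0.05. These 4 arrays are also the ones with the highest member levels, and the part of array brightness in the difference was not tested. On the processed signal before scaling, the median small subunit gene read 14.61 ± 0.83 for KO and 13.96 ± 0.72 for WT, while the 75th percentile of the arrays was 6.36 ± 1.73 and 7.46 ± 0.34 (SD, n = 7 each). Averaged over both sets, the signal of these genes was thus higher, and the percentile used for scaling lower, on the KO arrays. In set 2 that signal was 14.64, 14.68, 13.41 and 13.74 for KO and 13.35, 13.53, 14.23 and 14.20 for WT. These groups overlapped. The percentile in set 2 was 5.04, 3.63, 5.29 and 7.35 for KO and 7.36, 7.29, 7.24 and 7.09 for WT. In set 1 the signal was 14.90, 15.01 and 15.91 for KO and 15.38, 13.39 and 13.62 for WT. The percentile there was 7.99, 8.22 and 7.00 for KO and 7.39, 7.86 and 7.99 for WT.

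Within each set the members' median lay above that of all genes. In set 1 the members' median difference was 0.92 (small) and 0.76 (large) where all genes had 0.10, and in set 2 it was 2.08 in both subunits where all genes had 0.84. Relative to all genes this is 0.82 and 0.66 in set 1 and 1.24 and 1.25 in set 2. Dependence of the difference on the set was called for 0 members and for 0% of all genes, at an unadjusted p under 0.05 for 0 members and 4.85% of genes, and the smallest adjusted p among members was 0.872. Slide 2 alone, with 4 KO and 2 WT arrays, gave a median of 2.18 against 0.91 for all genes, and slide 1 is set 1.

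**Figure D3:**
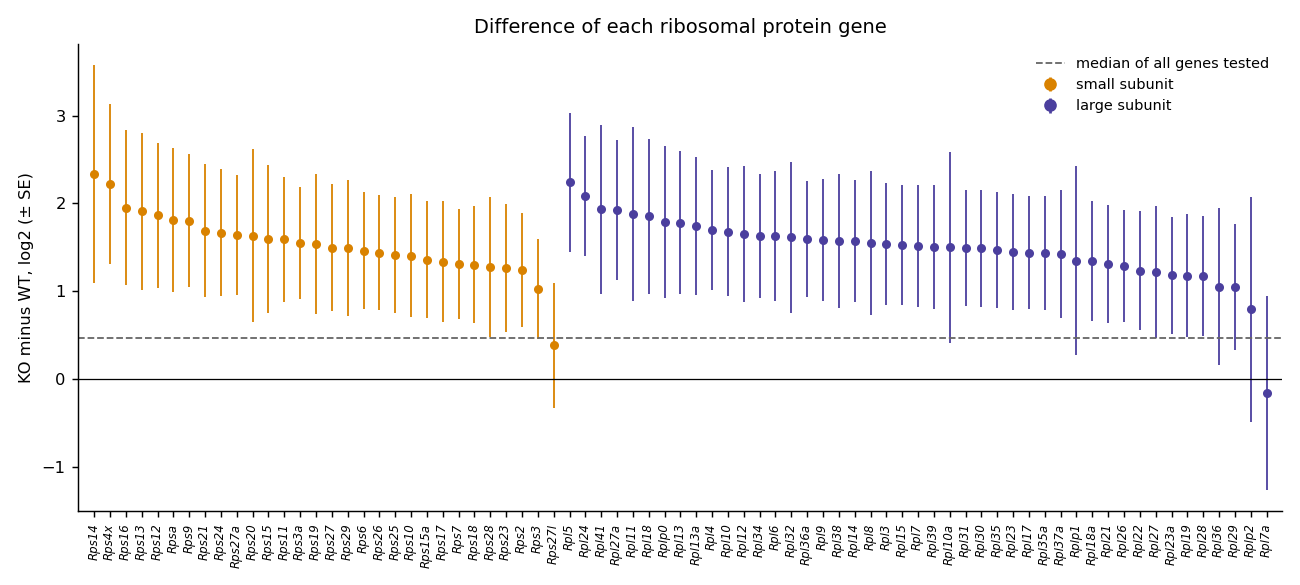
KO minus WT difference (log2, ± SE) of 75 of the 77 measured ribosomal protein genes, small subunit in orange and large subunit in violet, each ordered by size. The dashed line is the median of all 20407 genes tested (0.47); Rps27l and Rpl7a lie below it, and the subunit medians were 1.54 and 1.52.

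Among the small subunit genes, Rps6, the substrate of S6 kinase, had a lowest, median and highest level of 7.29, 8.96 and 11.78 in KO and of 6.83, 7.24 and 8.04 in WT, with its probe at chr4:86501867-86502058 (mm9). Its groups overlapped, with 4 KO arrays above every WT array, and the difference was 1.46 (SE 0.67; limma adjusted p = 0.348). Rpsa, which is also known as a laminin receptor, ran from 6.63 over 9.09 to 12.47 in KO and from 6.32 over 7.26 to 8.75 in WT, a difference of 1.82 (SE 0.82; limma adjusted p = 0.348). Rps19, the gene most often mutated in Diamond-Blackfan anaemia, differed by 1.54 (SE 0.80; limma adjusted p = 0.354), with a lowest KO level of 3.88 and a highest WT level of 5.71.

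Rps4x and Rps9, core proteins of the small subunit, differed by 2.22 (SE 0.91) and 1.80 (SE 0.76), and Rps27a, made as a fusion with ubiquitin, by 1.64 (SE 0.68), each at a limma adjusted p of 0.348. Rps3a differed by 1.55 (SE 0.64; limma adjusted p = 0.348). Rps14, whose loss is known from a form of myelodysplasia, had a wide spread and differed by 2.34 (SE 1.24; limma adjusted p = 0.36), from 1.45 to 8.45 in KO and from -2.21 to 5.50 in WT. WT set 1 replicate 2 was its highest WT array, as it was for the subunit median.

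At the other end, Rps27l, a p53-responsive paralog of Rps27, ran from -0.75 over 1.58 to 4.23 in KO and from -0.09 over 0.99 to 3.45 in WT. Its difference of 0.39 (SE 0.71; limma adjusted p = 0.799) was the lowest of the subunit, and KO set 2 replicate 2, the highest array for most members, was its lowest. Rps27 itself differed by 1.498 (SE 0.73; limma adjusted p = 0.348). Rps3, which also takes part in DNA repair, differed by 1.02 (SE 0.57), with 0.07 in set 1 and 1.74 in set 2. Rps2, Rps18 and Rps7 differed by 1.24, 1.30 and 1.31 (SE 0.65, 0.66 and 0.63), and Rps18 and Rps7 had values of 0.31 and 0.39 in set 1 against 2.05 and 2.00 in set 2.

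In the large subunit, Rpl24, which bridges the subunits, had the smallest p of all members. Its level ran from 5.56 over a median of 8.21 to 10.04 in KO and from 4.78 over 5.45 to 6.60 in WT, read at chr16:55970228-55970287 (mm9). Again 4 KO arrays lay above every WT array and the groups overlapped, with a difference of 2.09 (SE 0.68; unadjusted p = 0.00732, limma adjusted p = 0.315). Rpl5, which carries 5S rRNA and binds Mdm2, ran from 5.40 over 8.02 to 11.02 in KO and from 4.84 over 5.23 to 6.88 in WT, and its difference of 2.24 (SE 0.79; limma adjusted p = 0.324) was the highest of the subunit. Its partner Rpl11 differed by 1.88 (SE 0.99; limma adjusted p = 0.359), from 3.75 to 10.05 in KO and from 2.80 to 6.76 in WT. Rpl23, the other Mdm2 binder named here, differed by 1.45 (SE 0.66; limma adjusted p = 0.348). The 3 genes had overlapping groups and 4, 2 and 4 KO arrays above every WT array.

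Rpl38, known for its part in the translation of Hox mRNAs, differed by 1.57 (SE 0.76; limma adjusted p = 0.348), from 5.82 over 6.96 to 11.06 in KO and from 5.78 over 5.90 to 7.33 in WT. Rpl22, whose loss is known to impair lymphocyte development, differed by 1.24 (SE 0.68; limma adjusted p = 0.366), from 4.05 over 5.18 to 7.66 in KO and from 2.76 over 4.23 to 5.54 in WT. Neither gene separated the groups. Rpl4, Rpl34, Rpl36a and Rpl27a differed by 1.70, 1.63, 1.60 and 1.92 (SE 0.68, 0.70, 0.66 and 0.80), each at a limma adjusted p of 0.348, and Rpl41, a very short basic peptide, by 1.93 (SE 0.96; limma adjusted p = 0.35). Smaller values came from Rpl29 with 1.05 (SE 0.71), of which 0.21 in set 1 and 1.68 in set 2, and from Rpl36 with 1.05 (SE 0.89), which was -0.39 in set 1 and 2.13 in set 2. The smallest p for dependence on the set came from Rps3 and Rpl36, whose set 2 minus set 1 values were 1.67 (SE 1.08) and 2.52 (SE 1.74), both at a limma adjusted p of 0.872.

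The stalk proteins, which recruit the elongation factors, bear the acidic ends that reach out from the large subunit. Rplp0, the base of the stalk, differed by 1.79 (SE 0.87; limma adjusted p = 0.348), from 3.88 to 9.97 in KO and from 3.93 to 6.95 in WT. Rplp1 differed by 1.35 (SE 1.08; limma adjusted p = 0.509) and Rplp2 by 0.79 (SE 1.28; limma adjusted p = 0.767). Rplp2 had a wide spread within KO, from -1.55 on set 2 replicate 3 to 8.51 on set 2 replicate 2. The paralog partners Rpl3, Rpl10 and Rpl39 differed by 1.54, 1.68 and 1.504 (SE 0.69, 0.73 and 0.71) and were above background on all arrays, unlike Rpl3l, Rpl10l and Rpl39l.

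For the median member, departure from its subunit was smaller than variation between arrays. Over the 14 arrays the median member had an SD of 1.52 in its level and of 0.43 in its distance from the median of its subunit on the same array. The median SD in level over all genes was 1.63. Such a distance removes any shift that an array's genes share, and it was not computed for other groups of genes. The smaller SD is therefore not read as particular to the members. Rpl10 followed its subunit most closely of all members, with an SD of 0.17 in that distance, and Rpl7a least among the measured members, with 2.06. The distance of Rpl7a was -10.18 on KO set 2 replicate 3, at a level of -1.89, and from -4.82 to -0.75 on the other arrays. Rpl7a was above background on 6 KO and 7 WT arrays, and its difference given below includes that low reading. When every array was scaled to the median of the members, 0 members passed the test and 0 had an unadjusted p under 0.05. On this scale 0.123% of all genes passed, but the centring itself sets members near 0 and other genes away from it, so nothing is read from that contrast. The lowest difference of a member was then -1.83 (Rpl7a, SE 0.90; limma adjusted p = 0.254), Rpl5 had 0.57 (SE 0.38; limma adjusted p = 0.344), and the median of all genes was -1.21. The next lowest was Rps27l with -1.29 (SE 0.86; limma adjusted p = 0.343).

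Several probes read the same gene for 61 members, and they did not always give the same answer. Of the 179 kept probes, 168 differed above 0 and 11 below. All 154 probes that were above background on all 14 arrays lay above 0, with a median of 1.59, while the 25 that were not had a median of 0.20 and 14 of them lay above 0. The 11 probes below 0 were all among these 25. The share above 0 among all probes of the array so detected was not computed. The 6040 genes with a probe above background on all 14 arrays had a median difference of 1.06, so values above 0 are not particular to the members. For the median gene the spread between its probes was 0.29, and for Rpsa it was 4.37.

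**Figure D4:**
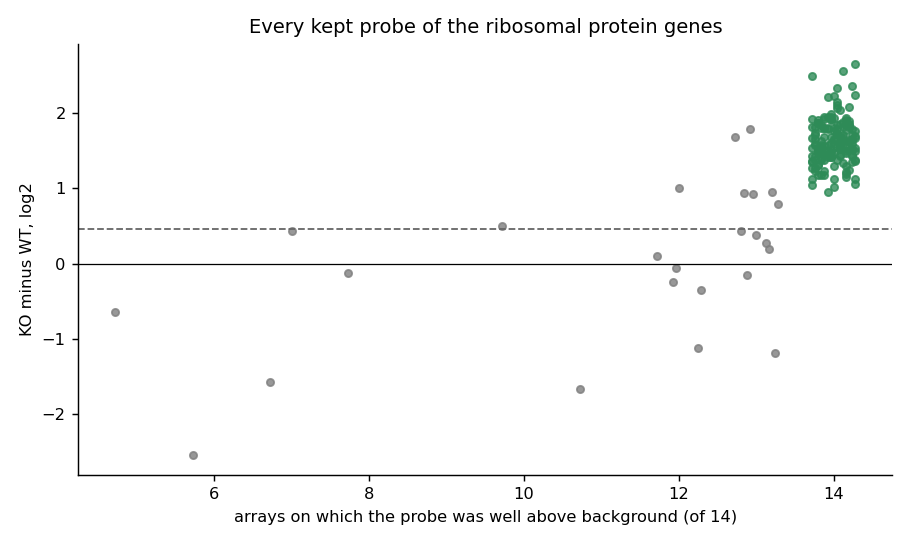
KO minus WT difference (log2) of each of the 179 kept probes of the ribosomal protein genes, against the number of the 14 arrays on which the probe was well above background (points spread sideways for display). Green probes, above background on all arrays, lie above 0; the 11 probes below 0 are among the 25 grey ones. The dashed line is the median of all genes (0.47). For the 6040 genes with a probe above background on all arrays the median was 1.06.

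In Rpsa, 3 probes differed by 1.82, 1.43 and 1.74, and a probe at chr9:120040967-120041026 (mm9), 698 bases towards the 3′ end from the brightest, by -2.55 (SE 1.08; unadjusted p = 0.0311, limma adjusted p = 0.357). It was above background on 1 KO and 5 WT arrays. It thus passed the filter only through WT, where it read higher, which favours a difference below 0. In Rps6 the probe at chr4:86500063-86500122, above background on 6 KO and 7 WT arrays, differed by -1.20 (SE 0.9999) where the other 2 gave 1.46 and 1.84. Rpl15 and Rpl14, large subunit proteins, had second probes at -1.67 (SE 0.89) and -1.58 (SE 0.93) against 1.53 and 1.57 at their brightest. That of Rpl14 was above background on 2 KO and 5 WT arrays. Like the Rpsa probe, it passed the filter only through WT, as did probes of Rpl21 and Rpl22 among the 11. None of the 11 passed the adjusted threshold. Of the 10 that were not their gene's brightest probe, 9 lay 3′ of it on the coordinates of the array design and 1 lay 5′ of it. The remaining probe was the brightest of Rpl7a, with -0.16 (SE 1.10), where the other 3 gave 1.504, 0.92 and 0.96.

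Ribosomal protein genes have many near-identical processed copies, and the array design placed 24 of 182 member probes with a position on another chromosome than RefSeq places the gene, in 16 genes. The brightest probe was such a probe for Rps4x, Rps27, Rps29, Rpl36 and Rpl37a. For instance, the probe of Rps4x was placed on chromosome 3 although the gene lies on the X chromosome. Which copy gives the signal of these 5 genes is uncertain. The probes placed elsewhere differed by a median of 1.63, from 0.94 to 2.57, and those placed with the gene by a median of 1.54.

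Genes that work with the ribosome were read from 5 lists, of which 0 genes passed the test in either direction. Of 5 ribosomal protein genes outside the name rule, all 5 were measured and all lay above the median of all genes, with a median difference of 1.27 above it. Rpl36al, a near-identical copy of Rpl36a, differed by 2.96 (SE 0.96; limma adjusted p = 0.315) and Fau by 2.36 (SE 1.03). The list of other genes with TOP mRNAs, which holds elongation and initiation factors but also genes such as Vim, Nap1l1 and Hnrnpa1, gave 16 of 17 above the median of all genes and a median 0.996 above it. The smallest p of this list came from Eef1g at 1.86 (SE 0.76), Tpt1 at 1.64 (SE 0.69) and Eef1b2 at 1.86 (SE 0.79), each at a limma adjusted p of 0.348. These 17 genes, like most members, were above background on all 14 arrays.

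Of the 31 nucleolar assembly factors, 14 lay above the median of all genes, and the list median was 0.36 below it. Among them Ncl, the abundant nucleolar protein nucleolin, differed by 1.79 (SE 0.69; limma adjusted p = 0.344) and Nop10, of the pseudouridylation particle, by 1.84 (SE 0.69; limma adjusted p = 0.339), while Ebna1bp2, which is needed for large subunit assembly and was above background on 4 KO and 7 WT arrays, differed by -2.25 (SE 0.77; limma adjusted p = 0.32). Between 11 and 31 of these genes were above background on single KO arrays and between 26 and 31 on WT arrays. Unlike most members, most of these factors were not above background on all 14 arrays. Those that were stood, relative to all genes, at 1.37 (Nop10), 1.33 (Ncl), 1.11 (Fbl), 0.87 (Nop56), 0.55 (Rrp12), 0.37 (Npm1) and -0.45 (Gnl3). The part of detection in the position of this list was not tested. Of 11 genes of RNA polymerase I, which makes rRNA, 7 lay above the median of all genes and the list median was 0.67 above it. Taf1b, of the promoter selectivity factor, and Polr1a, the largest subunit of the polymerase, differed by -2.33 (SE 0.75; limma adjusted p = 0.315) and -3.19 (SE 1.17; limma adjusted p = 0.334) and Taf1c by 2.67 (SE 1.05; limma adjusted p = 0.348). Taf1b was above background on 4 KO and 7 WT arrays, Polr1a on 2 and 7, and Taf1c on 4 and 3. Polr1a and Taf1c thus passed the filter only through the genotype in which they read higher, which favours a difference.

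Of 18 growth regulators, 14 were measured, 6 lay above the median of all genes and the list median was 0.13 below it. Myc, which drives ribosome production, ran lower on average in KO with a mean of 2.92 ± 2.12 against 4.598 ± 0.99 (SD, n = 7 each), a difference of -1.67 (SE 0.77; limma adjusted p = 0.348). Tsc2, an inhibitor of mTOR signalling, differed by -2.01 (SE 0.78; limma adjusted p = 0.344) and Mtor by 1.46 (SE 0.79; limma adjusted p = 0.364). None of these 3 differences passed the test.

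Markers of cells other than B cells did not pass the test either, and their part in the members' difference was not tested. Of 9 macrophage genes 5 were measured, and the mean level of the list ran from -3.62 to 6.09 in KO and from -3.09 to 2.03 in WT. Of 7 T cell genes 5 were measured, with list levels from -2.92 to 0.42 in KO and from -2.89 to -1.66 in WT, and of 4 plasma cell genes 3, with -1.80 to -0.09 and -3.10 to -0.48. Granulocyte genes had 2 of 5 measured, from -3.85 to 0.50 in KO and from -3.10 to -1.18 in WT, and S100a8 was above background on 0 arrays. Erythroid genes had 2 of 4 measured, from -4.70 to 4.17 and from -5.34 to 2.26. Mast cell and mesothelial genes had 0 of 4 and 0 of 3 measured; their lists ran from -5.63 to -1.62 and from -6.38 to -1.55 in KO, and from -5.32 to -2.37 and from -6.15 to -3.41 in WT. The 8 B cell genes stood 0.44 above the median of all genes, with all 8 above it, and their mean level ran from 5.07 to 8.69 in KO and from 5.004 to 6.24 in WT.

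The size of the members' difference moved with the normalization. Scaled to the probes above background on all 14 arrays, the members' median difference was 0.35 and that of all genes -0.71. Such a scaling shifts all genes of an array alike, so the distance between the medians is fixed by construction and only their place relative to 0 moves. With quantile normalization the members' median was 0.26, and 0.32 relative to all genes, with 68 of 77 above their median. On the deposited values it was 0.31 relative to all genes, and with normexp background correction 0.19. Among the 6040 genes with a probe above background on all 14 arrays, whose median difference was 1.06, the 75 members so measured stood 0.47 above it. The count of members past the adjusted threshold was 0 under each setting run.

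**Figure D5:**
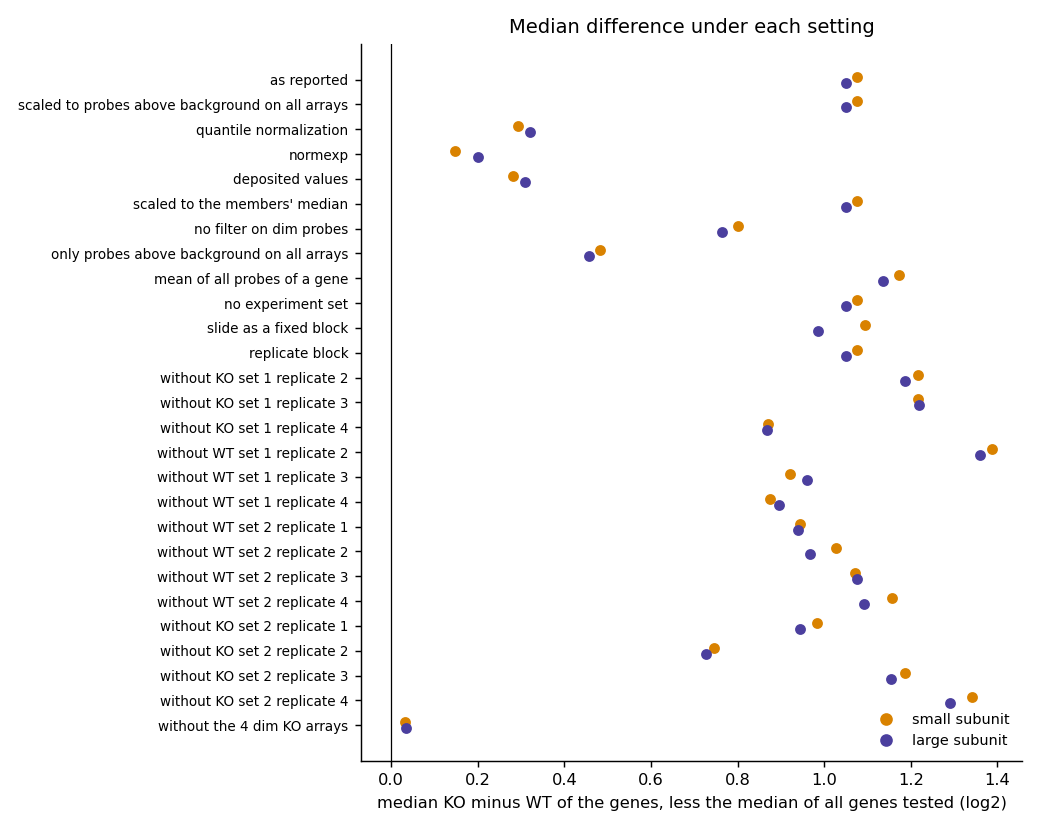
Median KO minus WT difference of the small (orange) and large (violet) subunit genes less the median of all genes tested (log2), under each setting of the analysis. As reported the values were 1.08 and 1.05; they were 0.15 and 0.20 with normexp and 0.03 and 0.03 without the 4 KO arrays with under 40% of probes above background.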

How the data were processed

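Agilent Feature Extraction 10.7.3.1, per the file headers, gave the intensity of each spot and mm9 positions, and the submitters' processing notes name this tool too. Per the labels, RNA was extracted with a micro column kit and labelled with Cy3 by a company protocol that is not disclosed. The deposited table holds log2 values whose columns followed each array's scanner values (Spearman's rho at least 0.999) and have equal medians (3.95). Its columns also followed the quantile-normalized values (Pearson's r at least 0.999). Its tool is unknown here, and it served as an alternative that is not independent of quantile normalization. Further columns of the deposited scanner output are scores of 0 or 1 that mark spots above background, saturated spots and outliers. Outlier spots were left out and spots of a probe averaged. Tests were lmFit and eBayes (limma 3.58.1, R 4.3.3, with the package data.table in version 1.17.8) over 20407 genes with experiment set as covariate, two-sided, Benjamini-Hochberg adjusted at 0.05; dependence on the set was tested in a fit of the 4 groups. The procedure was tested on simulated data, with independent noise at the WT spread for all arrays and no shift between arrays. That setting does not cover the wider spread of KO (median SD of a gene 1.83, WT 1.03) or the dim arrays. Figures used matplotlib 3.10.9 in Python 3.11.15. Alternatives were other scalings, background correction, dim-probe filters, probe choice, covariates, a replicate block and leaving out arrays. Members, lists and rules were chosen with earlier results of these data known. Named members were, per subunit, the 6 with the smallest p, the 3 highest and 3 lowest differences, a fixed list by role, paralogs, and the 4 with the smallest p for dependence on the set; each other list gave the 3 genes with the smallest p. Rpl14, Rpl15, Vim, Nap1l1, Hnrnpa1, B cell and B-1a markers were named outside that rule, after their values were seen. Some genes that the rule names are left out here. Gene names come from the array design; 79 of 80 matched a RefSeq symbol. The number of arrays limits the precision. No protein table was used here.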

Additional observations from a re-analysis of the deposited data

Results flagged for a closer look

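WT set 1 replicate 2 stood apart from the other WT arrays in 3 genes, by the gap to the nearest array as a share of the range (Dixon's test). Rpl27a read 8.23 there and 6.62 on the next WT array, Rpl7a 7.13 and 3.71, and Rplp2 5.58 and 2.79. These are 3 of 86 group tests, and chance gives such a result in about 1 in 20 groups. That array had the smallest share of probes above background among the WT arrays (43.5%) and the highest subunit medians among them (7.99 and 7.88).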

How the results depend on the processing

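The counts of members past the threshold (0) and of other ribosome genes past the threshold (0) were the same under each setting run. The count of members whose difference depends on the set was 0 wherever it was taken. It was not taken without the set as covariate, with slide as a block or with the replicate block. The medians of the subunits relative to all genes stayed above 0, from 0.73 (large, without KO set 2 replicate 2) to 1.39 (small, without WT set 1 replicate 2) when leaving out 1 array, and at 0.03 in both without the 4 dim KO arrays. Members at an unadjusted p under 0.05 numbered 38 as reported, 3 without KO set 2 replicate 2, 67 without KO set 2 replicate 4, 2 with quantile normalization and 42 with no filter on dim probes, so this count rests on single arrays. With slide as a block they numbered 5 and the members' median stood 1.02 above all genes. With the replicate block the median was 1.06 and 7 had an unadjusted p under 0.05. Same-numbered arrays correlated at -0.23 to 0.18, and 1 of 7 KO arrays correlated best with its own number. The labels do not say whether the numbers pair the samples, and correlations between so few arrays cannot decide it. No setting changed a call.

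Single genes changed side of the median of all genes, none of them past the threshold and the cause not tested. Leaving out 1 array, Rps27l ranged from -0.50 to 0.37, Rplp2 from -0.50 to 1.19 and Rpl7a from -1.14 to 0.29. With quantile normalization the values were 0.094 (Rps27l), -0.26 (Rps3), -0.35 (Rplp2), -0.20 (Rpl29) and -0.027 (Rpl22). On deposited values they were 0.10, -0.25, -0.33, -0.22 and -0.021 for the same genes. With normexp they were -0.35 (Rps3), -0.092 (Rps2), -0.14 (Rplp2), -0.31 (Rpl29), -0.023 (Rpl36), -0.053 (Rps18), -0.053 (Rps7) and -0.12 (Rpl22). With only probes above background on all arrays they were -0.042 (Rps3), 0.44 (Rpl7a, another probe), -0.014 (Rpl29) and -0.011 (Rpl36). With the mean of all probes they were 6e-04 (Rps27l) and 0.42 (Rpl7a), and with the slide block 0.31 (Rps27l). Without the 4 dim KO arrays they were -0.15 (Rps2), -0.060 (Rps14), -0.93 (Rplp2), -0.44 (Rpl29), -0.16 (Rpl41), -0.50 (Rpl36), -0.041 (Rps18), -0.071 (Rpsa), -0.012 (Rps19), -0.14 (Rplp0), -0.73 (Rplp1), -0.025 (Rps27) and -0.12 (Mtor). The alternative without these arrays was chosen after seeing the data. Signal over background limits the 25 probes not above it on all arrays, and Rpl3l, Rpl10l and Rpl39l have no measured difference.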
